A study of Mus musculus with 18 samples.

Results

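A set of 10 myeloid receptor and adaptor genes was followed through mouse melanoma allografts. They are the Fc gamma receptors Fcgr1, Fcgr2b, Fcgr3 and Fcgr4, the adaptors Fcer1g and Tyrobp, the lipid-binding receptor Trem2, and the C-type lectins Clec7a, Clec4n and Clec4d. Members were taken as every probe set whose only gene symbol in the platform annotation is 1 of these 10 names. That gave 17 of 45037 probe sets on the array, and 10 of 18193 genes named by a probe set with a single symbol.

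RNA came from 18 tumours, 6 in each of 3 groups. All tumours were grown from iNRAS-475, a single mouse melanoma cell line, placed in the skin of nude mice given 2 mg/ml doxycycline in their water until tumours measured 200 to 500 mm3, at about 6 weeks. In the -NRAS group doxycycline was then withdrawn, and the label gives 4 days. In the MEKi group the mice received 100 mg/kg AZD6244, an inhibitor of the kinase MEK, with a label of 4 days, and in the vehicle group they received vehicle, with no duration in the labels. Nude mice lack a normal T cell compartment but keep macrophages, neutrophils, NK cells and B cells, and which cells of the tumour made the RNA was not measured. The study states that each array is a separate tumour, and the labels give no batch, date or host age.

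Fc gamma receptors bind the constant part of IgG, so that phagocytes recognise antibody-coated cells and immune complexes. Fcgr1, Fcgr3 and Fcgr4 are the activating receptors of the mouse: they signal through the Fc receptor gamma chain, encoded by Fcer1g, whose cytoplasmic tail carries an immunoreceptor tyrosine-based activation motif (ITAM) that recruits the kinase Syk. Fcgr2b is the inhibitory receptor, with an inhibitory motif that recruits the phosphatase SHIP1, encoded by Inpp5d. Tyrobp encodes DAP12, another ITAM adaptor, which pairs with TREM2. Clec7a encodes Dectin-1, a beta-glucan receptor with its own ITAM-like motif, while Clec4n (Dectin-2) and Clec4d (MCL, also called Dectin-3) bind microbial glycans and glycolipids and signal through the Fc receptor gamma chain.

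Values are probe set intensities on a linear scale as deposited, in arbitrary units. The intensity of 1 probe set cannot be set against that of another, so levels are compared only between tumours. Where a gene had several probe sets, the one with the highest mean stood for it, and changes were tested with limma on log2(intensity + 16) over the 15005 genes whose mean lay above the 25th percentile of all probe sets, an intensity of 23.5. A change was called at a Benjamini-Hochberg adjusted p under 0.05. All 10 members passed that filter.

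Nearly every member was higher in -NRAS tumours than in vehicle tumours and every member was lower in MEKi tumours than in vehicle tumours. In -NRAS minus vehicle, 9 of 10 members rose and 0 fell, where 31.8% of all genes tested rose and 27.5% fell; the median change of the members was 1.32 on the log2 scale, with 0.0036 for all genes. In MEKi minus vehicle, 0 rose and 10 of 10 fell, where 24.3% of all genes rose and 20.9% fell; the median was -0.99, with 0.0089 for all genes. In -NRAS minus MEKi, 10 of 10 rose and 0 fell, where 24.3% of all genes rose and 22.7% fell, and the median was 2.31. Both comparisons against vehicle use the same 6 vehicle tumours. In bulk tumour RNA, fewer cells of a type and less RNA per cell cannot be told apart.

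**Figure D1:**
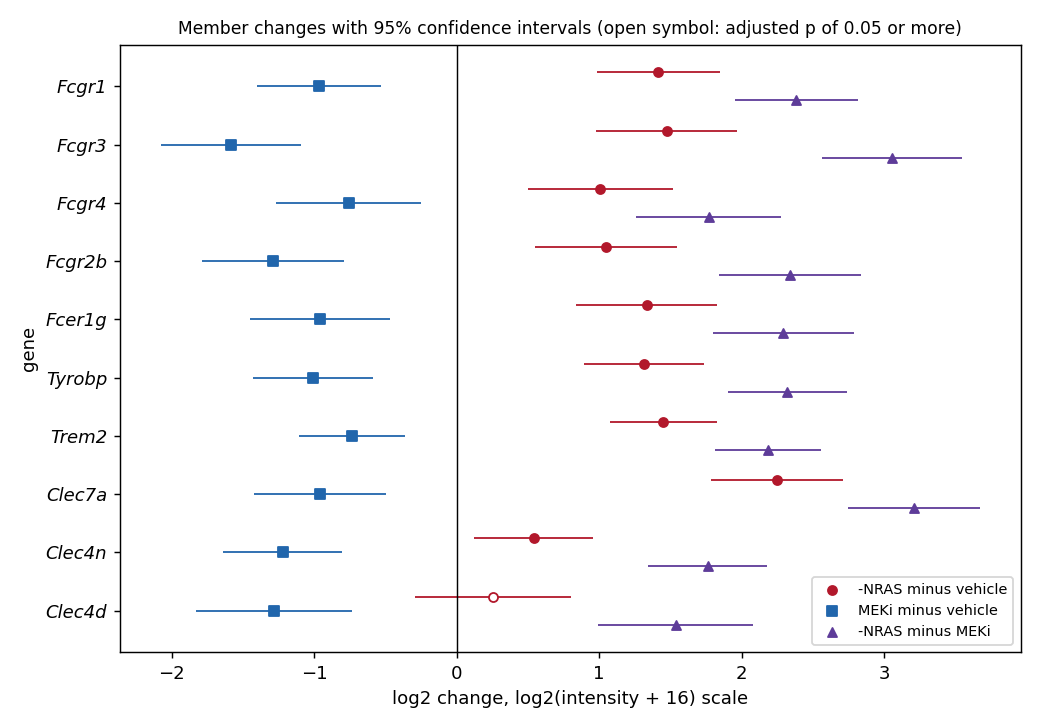
Log2 change of each member on the log2(intensity + 16) scale (x axis) for -NRAS minus vehicle, MEKi minus vehicle and -NRAS minus MEKi, with 95% confidence intervals from limma; an open symbol has an adjusted p of 0.05 or more. The 10 MEKi minus vehicle points lie between -1.58 and -0.74, the -NRAS minus vehicle points between 0.25 and 2.25, and only the Clec4d point of -NRAS minus vehicle is open.

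The promoters of 3 members are shown because they belong to the lectin that rose most in -NRAS tumours (Clec7a), the lectin that was not called there (Clec4d), and the Fc receptor whose promoter holds a match to an interferon-related motif (Fcgr4). RefSeq's promoter table (GRCm38.p6) held 10 promoters of 8 members and no entry for Clec4n and Tyrobp. Each window runs from 250 bases before the gene's start to 50 bases after it and is printed on the strand of the gene. Capitals mark matches on either strand to GAGGAA, the core bound by PU.1, which is a transcription factor of myeloid cells, and to GAAA followed by any 2 bases and GAAA again, the pattern bound by interferon regulatory factors. The windows are chr1:171018676-171018975, plus strand, for Fcgr4, chr6:129472730-129473029, minus strand, for Clec7a, and chr6:123261857-123262156, plus strand, for Clec4d.
Fcgr4: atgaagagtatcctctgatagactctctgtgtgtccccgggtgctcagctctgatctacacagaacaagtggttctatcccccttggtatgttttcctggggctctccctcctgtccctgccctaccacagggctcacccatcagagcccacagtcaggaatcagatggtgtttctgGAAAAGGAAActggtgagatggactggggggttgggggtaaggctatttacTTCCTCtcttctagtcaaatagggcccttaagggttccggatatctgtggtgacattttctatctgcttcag
Clec7a: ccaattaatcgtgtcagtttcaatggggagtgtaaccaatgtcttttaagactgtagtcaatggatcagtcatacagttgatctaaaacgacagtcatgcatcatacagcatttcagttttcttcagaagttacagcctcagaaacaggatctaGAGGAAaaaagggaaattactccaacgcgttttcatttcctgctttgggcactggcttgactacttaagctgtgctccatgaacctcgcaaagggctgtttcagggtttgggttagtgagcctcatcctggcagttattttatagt
Clec4d: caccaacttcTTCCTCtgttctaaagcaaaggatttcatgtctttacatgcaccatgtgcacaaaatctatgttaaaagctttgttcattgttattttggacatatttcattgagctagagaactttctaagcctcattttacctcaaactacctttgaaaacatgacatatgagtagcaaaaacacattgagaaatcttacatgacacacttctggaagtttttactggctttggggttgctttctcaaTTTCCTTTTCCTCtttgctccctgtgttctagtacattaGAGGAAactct

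GAGGAA occurred in a promoter of 6 of the 8 members (Fcgr1, Fcgr3, Fcgr4, Trem2, Clec7a and Clec4d), and in 28.3% of all 32851 promoters of the same length. The pattern with 2 GAAA blocks occurred in Fcgr4, with its first base at -73 counted from the start base as 0, and in Clec4d, at 0, against 3.44% of all promoters. The Clec4d match to this pattern overlaps a match to GAGGAA on the opposite strand, so the capitals there form 1 run. Neither pattern was found in the windows of Fcgr2b and Fcer1g. Promoters with and without each pattern were found among the members that rose in -NRAS tumours, and Clec4d, which was not called there, holds both GAGGAA and the GAAA pattern. These matches are descriptions of letters; no binding was measured.

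Among the activating receptors, Fcgr3, which encodes the low-affinity receptor FcgammaRIII, differed most between the 2 treated groups. Its lowest, median and highest intensities were 3864, 4657 and 5395 in -NRAS tumours, 341, 556 and 888 in MEKi tumours and 1180.0, 1657 and 2264 in vehicle tumours. The 3 groups do not overlap, and the -NRAS mean was 7.83 times the MEKi mean. By limma, Fcgr3 rose by 1.47 ± 0.23 (log2 change ± SE, adjusted p = 2.35e-05) in -NRAS minus vehicle, fell by 1.58 ± 0.23 (adjusted p = 2.12e-05) in MEKi minus vehicle, and rose by 3.06 ± 0.23 (adjusted p = 5.12e-09) in -NRAS minus MEKi.

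Fcgr1 encodes the high-affinity receptor FcgammaRI. Its intensities were 622, 839 and 1300.1 in -NRAS tumours (lowest, median and highest), 92.4, 157 and 293 in MEKi tumours and 240.1, 329 and 394 in vehicle tumours. All 6 -NRAS tumours were above every vehicle tumour, while 5 of 6 MEKi tumours were below every vehicle tumour and MEKi replicate 6 was within the vehicle range. The change was 1.42 ± 0.21 in -NRAS minus vehicle (limma adjusted p = 8.35e-06) and -0.97 ± 0.21 in MEKi minus vehicle (limma adjusted p = 0.000781).

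Fcgr4 encodes FcgammaRIV, an activating receptor of monocytes, macrophages and neutrophils. Its values were 129, 204 and 553 in -NRAS tumours, 39.5, 53.5 and 65.1 in MEKi tumours and 61.9, 103 and 141 in vehicle tumours. The highest -NRAS value is replicate 6, while -NRAS replicate 5 lay within the vehicle range, so the 2 groups overlap. Fcgr4 rose by 1.01 ± 0.24 in -NRAS minus vehicle (limma adjusted p = 0.00144) and fell by 0.76 ± 0.24 in MEKi minus vehicle (limma adjusted p = 0.0156). Without -NRAS replicate 6 the -NRAS minus vehicle change was 0.75, and it was still called.

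The inhibitory receptor moved with the activating ones. Fcgr2b had 4376, 4820.1 and 6328 in -NRAS tumours, 564, 997 and 1723 in MEKi tumours and 1870.4, 2414 and 2849.6 in vehicle tumours, and no 2 of the 3 groups overlap. Its change was 1.05 ± 0.24 in -NRAS minus vehicle (limma adjusted p = 0.000849), -1.29 ± 0.24 in MEKi minus vehicle (limma adjusted p = 2e-04) and 2.34 ± 0.24 in -NRAS minus MEKi (limma adjusted p = 1.64e-07).

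The 2 adaptors had similar changes. Fcer1g, the gamma chain that Fcgr1, Fcgr3 and Fcgr4 need for surface expression and signalling, had 2494, 3227 and 3941 in -NRAS tumours, 349.8, 726 and 1009 in MEKi tumours and 897, 1379 and 1644 in vehicle tumours. Its -NRAS tumours were all above the vehicle tumours, and 3 of 6 MEKi tumours were below every vehicle tumour while the other 3 fell inside the vehicle range. Fcer1g rose by 1.33 ± 0.24 in -NRAS minus vehicle (limma adjusted p = 7.12e-05) and fell by 0.96 ± 0.24 in MEKi minus vehicle (limma adjusted p = 0.00245).

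Tyrobp had 6228, 7582 and 8631 in -NRAS tumours, 842, 1686 and 2147 in MEKi tumours and 2515, 2910.2 and 3662 in vehicle tumours. The 3 groups do not overlap. The change was 1.32 ± 0.20 in -NRAS minus vehicle (limma adjusted p = 1.41e-05) and -1.01 ± 0.20 in MEKi minus vehicle (limma adjusted p = 0.000424).

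Trem2, the lipid and lipoprotein receptor that signals through DAP12, had 1005, 1066 and 1423 in -NRAS tumours, 150.4, 230.3 and 367 in MEKi tumours and 300.1, 426 and 476 in vehicle tumours. Every -NRAS tumour was above every vehicle tumour, and 4 of 6 MEKi tumours were below every vehicle tumour. Trem2 rose by 1.45 ± 0.18 in -NRAS minus vehicle (limma adjusted p = 1.07e-06) and fell by 0.74 ± 0.18 in MEKi minus vehicle (limma adjusted p = 0.00231), the smallest fall among the members.

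**Figure D2:**
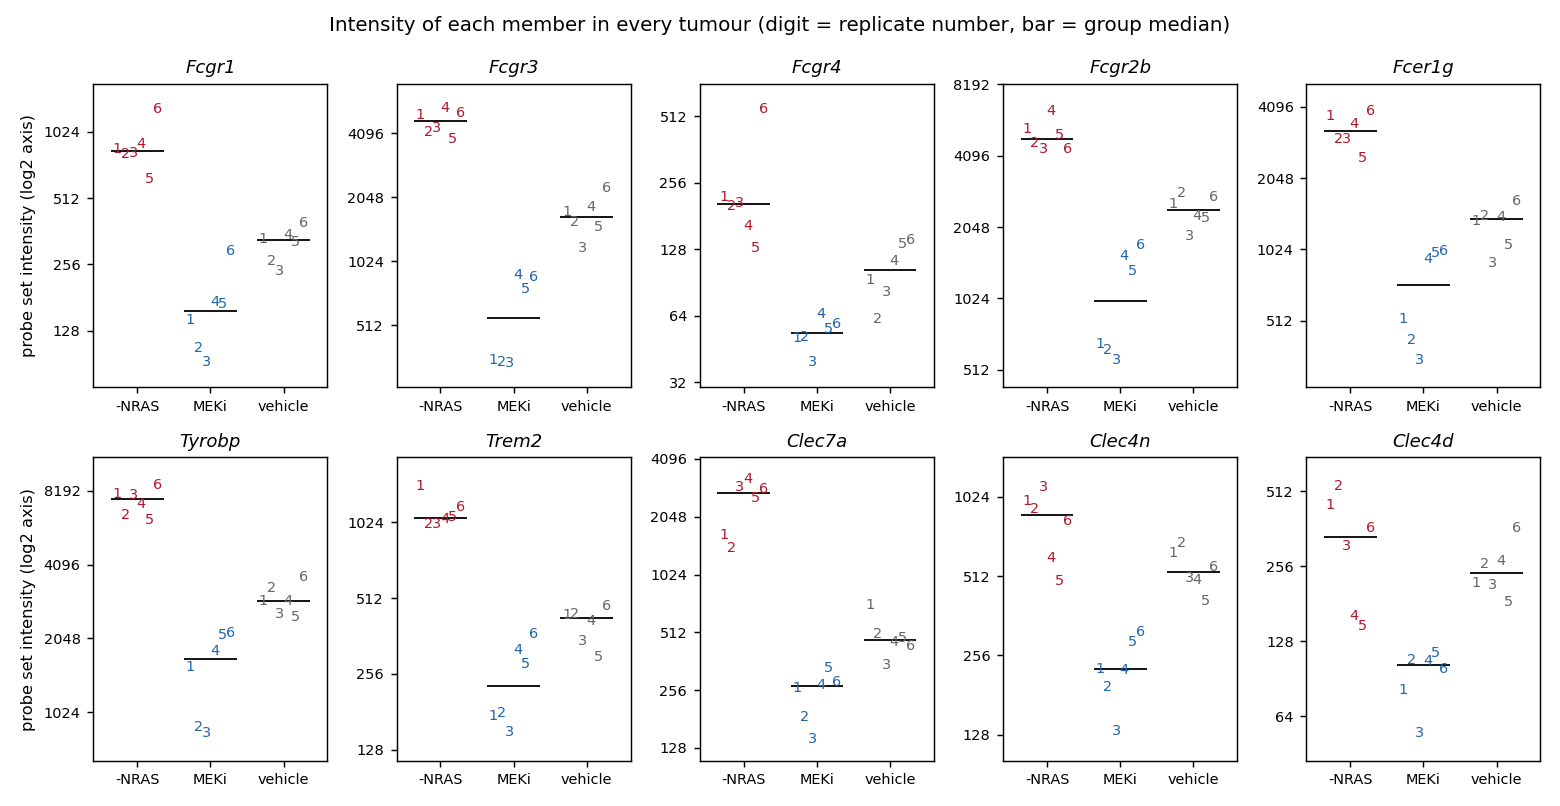
Probe set intensity of each member (y axis, log2 scale) in every tumour, with 1 panel per gene; digits are replicate numbers, bars are group medians, and the groups run -NRAS, MEKi, vehicle. All 10 panels have the -NRAS digits above the MEKi digits, and Clec4d is the panel in which -NRAS digits lie both above and below the vehicle digits.

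The 3 lectins did not move alike in -NRAS tumours. Clec7a had 1404, 2709.6 and 3211 there, with 143, 268 and 332 in MEKi tumours and 346, 466 and 714 in vehicle tumours, and the groups do not overlap. Clec7a rose by 2.25 ± 0.22 in -NRAS minus vehicle (limma adjusted p = 5.38e-08), the largest rise among the members, and its -NRAS mean was 4.98 times the vehicle mean. It fell by 0.96 ± 0.22 in MEKi minus vehicle (limma adjusted p = 0.0014).

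Clec4n had 493, 873 and 1112 in -NRAS tumours, 132, 227 and 313 in MEKi tumours and 412, 529 and 686 in vehicle tumours. In -NRAS tumours 4 of 6 were above every vehicle tumour, and replicates 4 and 5 were not; every MEKi tumour was below every vehicle tumour. Clec4n rose by 0.54 ± 0.20 in -NRAS minus vehicle (limma adjusted p = 0.0256) and fell by 1.22 ± 0.20 in MEKi minus vehicle (limma adjusted p = 6.09e-05). The rise was not called without vehicle replicate 5 (0.47, adjusted p = 0.0630), nor without -NRAS replicate 1 (0.48, adjusted p = 0.0593), 2 (0.50, adjusted p = 0.0509) or 3 (0.45, adjusted p = 0.0675), and the gene's other probe set changed by 0.62 ± 0.30 (limma adjusted p = 0.0858).

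Clec4d had 147, 337 and 540 in -NRAS tumours (lowest, median and highest), 55.0, 103 and 115 in MEKi tumours and 184, 240.0 and 364 in vehicle tumours. The -NRAS tumours lie on both sides of the vehicle tumours: replicates 1, 2 and 6, at 450.5, 539.8 and 366, were above every vehicle tumour, and replicates 4 and 5, at 162 and 147, were below every vehicle tumour. The change in -NRAS minus vehicle was 0.25 ± 0.26 (limma adjusted p = 0.418), with a 95% confidence interval of -0.29 to 0.80, which holds falls as well as rises. It was 0.14 and 0.088 without -NRAS replicates 1 and 2, and 0.42 and 0.44 without -NRAS replicates 4 and 5 (limma adjusted p = 0.678, 0.781, 0.167 and 0.124). Clec4d fell by 1.28 ± 0.26 in MEKi minus vehicle (limma adjusted p = 0.0005), and the groups do not overlap.

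Over all members, 7 of 10 had every -NRAS tumour above every vehicle tumour, a pattern seen in 20.8% of all genes tested. In MEKi minus vehicle 6 of 10 had every MEKi tumour below every vehicle tumour, as did 12.7% of all genes. In -NRAS minus MEKi 10 of 10 had every -NRAS tumour above every MEKi tumour, as did 15.0% of all genes. The rises in -NRAS minus MEKi ran over the members between 1.54 ± 0.26 for Clec4d and 3.21 ± 0.22 for Clec7a (limma adjusted p = 7.15e-05 and 1.24e-09).

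Of the 10 members, 6 have 1 probe set and 4 have several. Of the 16 member probe sets above the filter, 12 were higher and 0 lower in -NRAS minus vehicle (28.0% and 26.7% of the 33777 probe sets tested). In MEKi minus vehicle 0 were higher and 14 lower (20.6% and 20.1%), and in -NRAS minus MEKi 14 were higher and 0 lower (20.6% and 20.0%). The second Trem2 probe set (1421226_at) lay at 39.8 to 63.3 across all tumours and changed by -0.08 ± 0.06 in -NRAS minus vehicle and by 0.03 ± 0.06 in MEKi minus vehicle (limma adjusted p = 0.311 and 0.767). The second Fcgr1 probe set (1436625_at) had 57.6 to 136 and changed by 0.12 ± 0.17 and -0.03 ± 0.17 (limma adjusted p = 0.567 and 0.917). Neither moved with the brighter probe set of its gene, and with the mean of all probe sets per gene the changes were 0.77 and -0.50 for Fcgr1 and 0.69 and -0.35 for Trem2, all still called.

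The 4 Fcgr2b probe sets above the filter differed in size but not in direction. Their changes ran between 0.74 and 1.05 in -NRAS minus vehicle and between -1.79 and -1.04 in MEKi minus vehicle, and all 4 had groups that do not overlap in both comparisons. The fifth Fcgr2b probe set (1447622_at) was below the filter, with medians of 10.9, 9.92 and 10.3 in -NRAS, MEKi and vehicle tumours, and was not tested. The extracellular parts of Fcgr2b and Fcgr3 are near identical, and Affymetrix names ending in _s_at or _x_at mark probes that can match more than 1 transcript or gene, so how far the values of these 2 genes are separate was not tested.

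Log2 ratios between member pairs within each tumour were compared because both genes of a pair are then read on the same array. The pairs were set by role after the members' values had been seen: each activating Fc receptor over Fcgr2b, the 2 adaptors, and the 3 lectins against each other. That makes 7 pairs and 21 comparisons, each by a two-sided exact permutation test over 12 tumours (924 splits, smallest p 0.00216), with p-values adjusted over the 21. After adjustment 7 were under 0.05.

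The ratio of Fcgr3 over Fcgr2b averaged -0.11 ± 0.20 in -NRAS tumours and -0.53 ± 0.22 in vehicle tumours (SD, n = 6 each), a difference of 0.43 (exact permutation p = 0.00866, adjusted 0.0303), with 5 of 6 -NRAS tumours above every vehicle tumour. In MEKi tumours it averaged -0.83 ± 0.09, a difference of -0.29 from vehicle (exact permutation p = 0.0152, adjusted 0.0455). With these probe sets the ratio was higher in -NRAS tumours and lower in MEKi tumours than in vehicle tumours. Over 17 alternatives, the other Fcgr2b probe sets included, the -NRAS minus vehicle difference was 0.36 to 0.74 (exact permutation p at most 0.0173). The MEKi minus vehicle difference did not hold: it was -0.19 with 1455332_x_at (exact permutation p = 0.0823) and 0.21, the opposite sign, with 1451941_a_at (exact permutation p = 0.316). In -NRAS minus MEKi the difference was 0.72 (exact permutation p = 0.00216, adjusted 0.0152), and 0.38 with 1451941_a_at (exact permutation p = 0.0649).

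The other activating receptors gave no ratio with an adjusted p under 0.05, but several differences depended on the Fcgr2b probe set. Fcgr1 over Fcgr2b differed by 0.37 in -NRAS minus vehicle and by 0.32 in MEKi minus vehicle (exact permutation, adjusted p = 0.202 for each). With 1435476_a_at, 1455332_x_at and 1451941_a_at in place of the Fcgr2b probe set, the -NRAS minus vehicle difference of Fcgr1 over Fcgr2b was 0.68, 0.48 and 0.53 (unadjusted exact permutation p = 0.00216, 0.0238 and 0.026), while it was 0.47 without -NRAS replicate 5 and 0.22 without -NRAS replicate 6 (unadjusted exact permutation p = 0.0195 and 0.182). The MEKi minus vehicle difference was 0.43 with 1455332_x_at, 0.82 with 1451941_a_at, 0.45 with a pseudocount of 64 and 0.43 without MEKi replicate 4 (unadjusted exact permutation p = 0.0433, 0.0238, 0.0411 and 0.0216). Fcgr4 over Fcgr2b differed by -0.04 and 0.53 (exact permutation, adjusted p = 0.924 and 0.202), and the second of these ran between 0.28 and 1.03 over 17 alternatives, with an unadjusted p under 0.05 in 1 of them (0.74 with a pseudocount of 64, exact permutation p = 0.0411). Its -NRAS minus MEKi difference was -0.57 and had an unadjusted p under 0.05 in 2 alternatives (-0.99 with a pseudocount of 64 and -0.86 without -NRAS replicate 6, exact permutation p = 0.0303 and 0.039). The adaptor ratio, Tyrobp over Fcer1g, was 1.18 ± 0.14 in -NRAS tumours, 1.16 ± 0.22 in MEKi tumours and 1.20 ± 0.16 in vehicle tumours (SD, n = 6 each), and its differences were between -0.05 and 0.03, smaller than the spread between tumours of 1 group.

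Clec7a rose relative to both other lectins in -NRAS minus vehicle. Clec7a over Clec4n averaged 1.54 ± 0.77 in -NRAS tumours, 0.09 ± 0.16 in MEKi tumours and -0.17 ± 0.31 in vehicle tumours (SD, n = 6 each). All 6 -NRAS tumours were above every vehicle tumour, and the difference was 1.71 (exact permutation p = 0.00216, adjusted 0.0152). The MEKi minus vehicle difference of 0.26 was not called (exact permutation, adjusted p = 0.202), but it was 0.86 with the other Clec4n probe set (unadjusted exact permutation p = 0.00866) and 0.34 without vehicle replicate 5 (unadjusted exact permutation p = 0.0476). Clec7a over Clec4d differed by 2.00 in -NRAS minus vehicle (exact permutation p = 0.00433, adjusted 0.0227) and by 0.32 in MEKi minus vehicle (exact permutation, adjusted p = 0.322), the second being 0.47 without vehicle replicate 1 (unadjusted exact permutation p = 0.0476). In -NRAS minus MEKi, Clec7a over Clec4n differed by 1.45 (exact permutation, adjusted p = 0.0152), and by 0.77 with the other Clec4n probe set (exact permutation p = 0.0584). Clec7a over Clec4d differed by 1.67 there (exact permutation, adjusted p = 0.0303). Clec4n over Clec4d was not called in any of the 3 comparisons, with differences between 0.06 and 0.29. With the other Clec4n probe set the -NRAS minus MEKi difference was 0.91 (unadjusted exact permutation p = 0.0303). That probe set (1425951_a_at) was dim in MEKi replicates 1 to 3, at 44.7, 31.8 and 21.9, near the filter intensity of 23.5. This limits the MEKi ratios that use it.

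**Figure D3:**
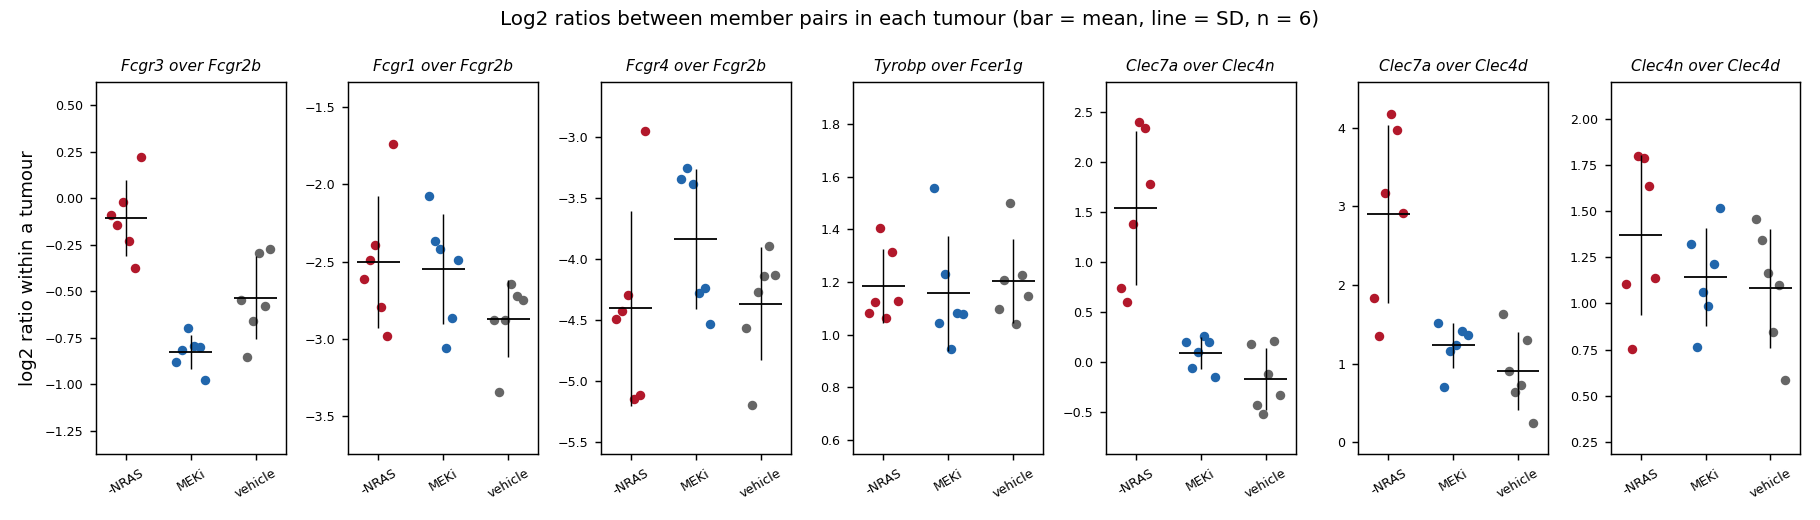
Log2 ratio within each tumour (y axis) for 7 member pairs, with 1 point per tumour, bars at the mean and lines for the SD (n = 6 per group). The -NRAS points of Clec7a over Clec4n all lie above the vehicle points, while the 3 groups of Tyrobp over Fcer1g have means between 1.16 and 1.20.

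Within the -NRAS group the lectins split between tumours. Clec7a was lowest in replicates 1 and 2, at 1654 and 1404, with 2553 to 3211 in the other 4. Those same replicates held the highest Clec4d, at 450.5 and 539.8, and the lowest ratios of Clec7a over Clec4d, at 1.84 and 1.35, with 2.92 to 4.18 in the other 4. The neutrophil markers, 7 of which were above the filter, summed to 3352, 14696, 5639, 2535, 1203 and 4723 in -NRAS replicates 1 to 6. Replicates 4 and 5, which had the lowest Clec4d, also had the lowest 2 of these sums, and replicate 2, which had the highest Clec4d, had the highest. Replicate 1, with Clec4d at 450.5, had a lower sum than replicates 3 and 6, with Clec4d at 309 and 366. Most of each of these sums came from S100a8 and S100a9. In replicates 1 to 6 S100a8 was at 2673, 8417, 4387, 1529, 694 and 2584, and S100a9 at 231, 5626, 759, 490, 150 and 1572. The order of the sums thus mainly describes these 2 genes and not all 7 markers. The part of neutrophil RNA in the Clec4d values was not tested. Replicate 2 also stood apart in Krt14, a keratinocyte keratin, at 6785 with 27.4 to 117 in the other -NRAS tumours, and without it and MEKi replicate 6 the member counts were the same 9 and 10.

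Within the MEKi group the members moved together. Replicate 3 was the lowest MEKi tumour for 10 of 10 members, and replicates 1 and 2 were among the 3 lowest for 9 of 10 members each. The macrophage markers (18 genes) summed to 19966, 14194 and 12893 in MEKi replicates 1 to 3 and to 26996, 28839 and 30095 in replicates 4 to 6. In the vehicle group replicate 6 was highest for 7 members and replicate 3 lowest for 5, and in the -NRAS group replicate 5 was lowest for 7.

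After subtracting each group's mean, the correlation over the 18 tumours between the 45 pairs of members ran between -0.27 and 0.95, with a median of 0.54. The highest was Fcgr3 with Fcer1g at 0.95, and Fcer1g with Tyrobp and Fcgr2b with Fcgr3 were both at 0.92. The lowest was Clec7a with Clec4d at -0.27. On average over the other members, Fcer1g was the most alike (mean r of 0.73) and Fcgr4, Clec4d and Clec7a the least (0.32, 0.34 and 0.35). The tumours share array and scaling within a pair, so these are descriptions and carry no test. By the same measure, the 6 genes outside the set that were most like the members' mean were Cd48 (r = 0.92), Ms4a7 (0.91), Plek (0.90), C1qb (0.90), Ly86 (0.90) and C3ar1 (0.90), with n = 18. That mean deviated from its group mean by -0.65 to 0.51 in MEKi tumours. The deviations were -0.35 to 0.31 in -NRAS tumours and -0.31 to 0.27 in vehicle tumours. Likeness to the members' mean therefore rests mostly on the MEKi tumours.

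**Figure D4:**
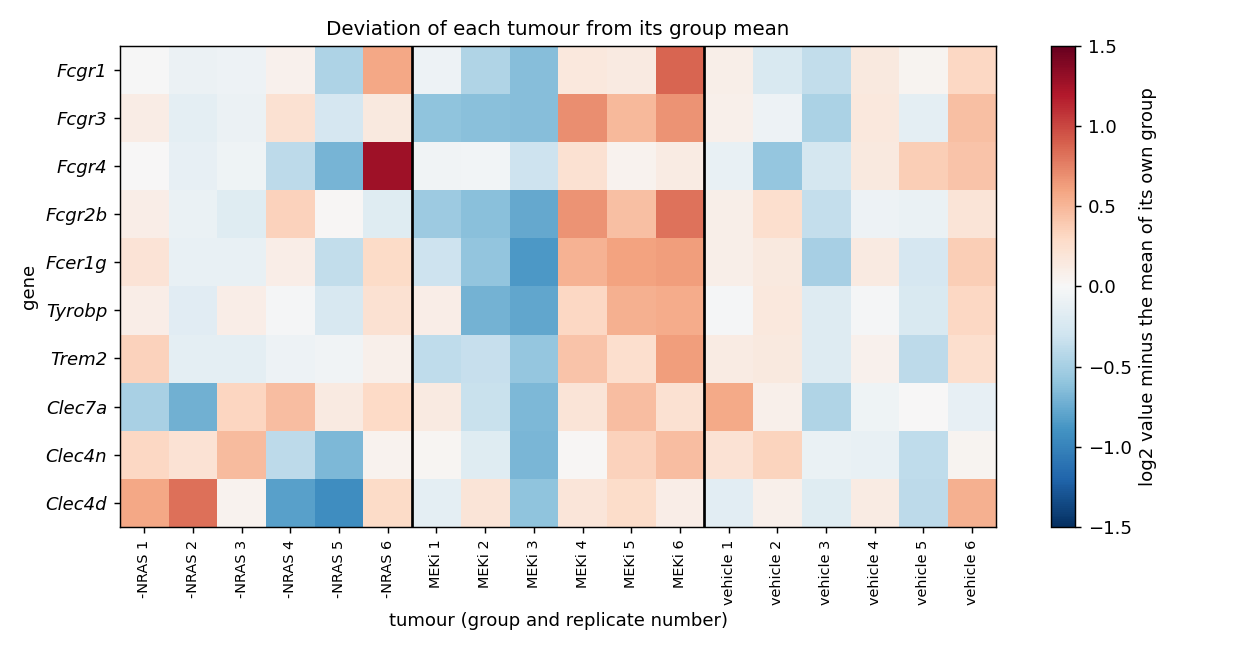
Deviation of each tumour's log2 value from the mean of its own group (colour, log2 units) for the 10 members (rows) and 18 tumours (columns, grouped as -NRAS, MEKi and vehicle). MEKi replicate 3 is blue for every member, and -NRAS replicates 4 and 5 are dark blue for Clec4d, where replicates 1 and 2 are red.

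Markers of several cell types moved in the same comparisons. Among all genes tested, 31.8% rose and 27.5% fell in -NRAS minus vehicle, and 24.3% rose and 20.9% fell in MEKi minus vehicle. In -NRAS minus MEKi 24.3% rose and 22.7% fell. Counts near these shares do not set a marker list apart from all genes. The 18 macrophage markers summed to 72772 to 91206 in -NRAS tumours, 12893 to 30095 in MEKi tumours and 27340.0 to 45603 in vehicle tumours, and 14 of 18 rose in -NRAS minus vehicle while 13 of 18 fell in MEKi minus vehicle. Adgre1, a surface receptor of macrophages, changed by 1.48 ± 0.21 and -0.62 ± 0.21 (limma adjusted p = 6.84e-06 and 0.0227), and the leukocyte gene Ptprc (CD45) by 1.37 ± 0.16 and -0.85 ± 0.16 (limma adjusted p = 5.35e-07 and 0.000249). Csf1r, the receptor of the macrophage growth factor CSF1, rose by 1.39 ± 0.14 in -NRAS minus vehicle but changed by 0.03 ± 0.14 in MEKi minus vehicle (limma adjusted p = 7.05e-08 and 0.896). All 9 pan-leukocyte markers rose in -NRAS tumours and 8 of 9 fell in MEKi tumours. Of the neutrophil markers 3 of 7 rose and 0 fell in -NRAS tumours and 0 of 7 were called in MEKi tumours, and of the fibroblast markers 8 of 10 rose and 2 fell (Pdgfra and Thy1) in -NRAS tumours, and 7 rose and 1 fell (Pdgfra) in MEKi tumours. Of 8 dendritic cell markers 7 rose in -NRAS minus vehicle, 1 fell in MEKi minus vehicle and 8 rose in -NRAS minus MEKi; they summed to 1061 to 2298 in -NRAS tumours, 525 to 578 in MEKi tumours and 659 to 817 in vehicle tumours. Of 6 monocyte markers 4 rose in -NRAS tumours and 2 fell in MEKi tumours, of 7 B cell markers 4 rose in -NRAS tumours, and of 6 NK cell markers 3 rose and 2 fell in -NRAS tumours and 2 fell in MEKi tumours. The part of cell number in the members' changes was not tested. Ly6g was not analysed here. Of 6 melanocytic markers 4 rose in -NRAS tumours, Pmel by 2.30 ± 0.27 (limma adjusted p = 5.43e-07), and 2 rose in MEKi tumours. Sox10 had 7901 to 11275 in -NRAS tumours, 11503 to 16609 in MEKi tumours and 8258 to 10311 in vehicle tumours. Its change was 0.05 ± 0.09 in -NRAS minus vehicle and 0.50 ± 0.09 in MEKi minus vehicle (limma adjusted p = 0.657 and 0.000211). Tyr, Tyrp1, Oca2 and Gpr143 were below the filter.

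Of 9 other Fc receptors tested, 7 rose in -NRAS minus vehicle and 2 fell in MEKi minus vehicle, with medians of 0.37 and -0.15. Of all genes tested, 31.8% rose in the first comparison and 20.9% fell in the other, so the 2 that fell are near the share of all genes. Leaving out any 1 of 9 tumours (MEKi replicates 1, 3, 4 and 5, or vehicle replicates 1, 2, 3, 4 and 6) left 1 that fell. Trim21, a cytosolic antibody receptor, rose by 1.33 ± 0.13, and Fcgrt, the neonatal Fc receptor that recycles IgG, by 1.16 ± 0.15 in -NRAS tumours (limma adjusted p = 7.37e-08 and 1.59e-06). Fcer1a, the IgE-binding chain of mast cells, and Ms4a2, its beta chain, fell by 1.01 ± 0.22 and 0.28 ± 0.11 in MEKi tumours (limma adjusted p = 0.000767 and 0.0418), where 8 of 10 mast cell markers, these 2 included, fell.

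Of 15 other receptors that pair with the Fc receptor gamma chain or DAP12, 6 rose and 1 fell in -NRAS minus vehicle and 6 fell in MEKi minus vehicle (medians 0.27 and -0.39). The shares over all genes were 31.8% that rose and 27.5% that fell in -NRAS minus vehicle, and 20.9% that fell in MEKi minus vehicle. Cd300lb, a DAP12-coupled receptor, rose by 1.44 ± 0.19 in -NRAS tumours and fell by 1.16 ± 0.19 in MEKi tumours (limma adjusted p = 1.82e-06 and 4.64e-05). Oscar, a collagen receptor coupled to the gamma chain, fell in both, by 0.65 ± 0.13 and 0.46 ± 0.13 (limma adjusted p = 0.000314 and 0.00792). Of 14 other C-type lectins tested, not all of them myeloid (Mrc2 is known from fibroblasts, Clec14a and Clec1a from endothelium), 12 rose in -NRAS minus vehicle, while 3 rose and 2 fell (4 without the 2 tumours with the highest Krt14) in MEKi minus vehicle (medians 1.26 and -0.06). The 3 that rose and 2 that fell do not exceed the shares of all genes in MEKi minus vehicle, 24.3% and 20.9%. Mrc1, the macrophage mannose receptor, fell by 1.52 ± 0.28 in MEKi tumours and Mrc2, a collagen-uptake receptor, rose by 0.97 ± 0.14 (limma adjusted p = 0.000211 and 1.68e-05).

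Downstream of the ITAM, 18 of 24 signalling genes tested rose in -NRAS minus vehicle and 15 of 24 fell in MEKi minus vehicle, with medians of 0.71 and -0.41. The matching shares over all genes were 31.8% and 20.9%. Blnk, an adaptor below Syk, rose by 1.60 ± 0.16 in -NRAS tumours, and Lcp2 (SLP-76), another adaptor, fell by 1.18 ± 0.16 in MEKi tumours (limma adjusted p = 5.24e-08 and 1.03e-05). Syk itself rose by 1.15 ± 0.10 in -NRAS tumours and changed by -0.08 ± 0.10 in MEKi tumours (limma adjusted p = 1.58e-08 and 0.559). The kinase Fyn rose by 0.26 ± 0.09 in MEKi tumours (limma adjusted p = 0.0195), the 1 gene of the list that did; without MEKi replicate 1 there were 0 such genes, and without vehicle replicate 3 or 6 there were 2. Of 18 inhibitory receptors and phosphatases, 14 rose in -NRAS minus vehicle, and 1 rose and 6 fell in MEKi minus vehicle (medians 0.50 and -0.17). Inpp5d, the phosphatase used by Fcgr2b, rose by 1.00 ± 0.12 in -NRAS tumours and changed by -0.27 ± 0.12 in MEKi tumours (limma adjusted p = 4.73e-07 and 0.0669). Oscar, Syk, Inpp5d and Fyn lie outside the rule by which list genes were named and were chosen after their values were seen.

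The phagocyte oxidase, which makes superoxide after Fc receptor or Dectin-1 engagement, moved with the members. All 5 subunits tested rose in -NRAS minus vehicle and all 5 fell in MEKi minus vehicle (medians 1.07 and -0.87). Cybb, the catalytic subunit, rose by 1.73 ± 0.20 and fell by 0.89 ± 0.20, and Ncf4, a cytosolic subunit, fell by 0.87 ± 0.13 (limma adjusted p = 5.18e-07, 0.00127 and 3.37e-05). Of 25 genes linked with TREM2-expressing macrophages, 16 rose and 3 fell in -NRAS minus vehicle, and 6 rose and 16 fell in MEKi minus vehicle (medians 0.63 and -0.22). The shares over all genes were 31.8% and 27.5%, and 24.3% and 20.9%, so the 6 that rose are near the share of all genes. Without MEKi replicate 3, 10 fell in MEKi minus vehicle. Lpl, lipoprotein lipase, rose by 3.40 ± 0.20 in -NRAS tumours and by 0.81 ± 0.20 in MEKi tumours, and the chemokine Ccl6 fell by 1.80 ± 0.41 in MEKi tumours (limma adjusted p = 5.11e-11, 0.00249 and 0.00136). Tumour cells and fibroblasts also express several genes of these lists, and the lists were chosen with earlier results of these data known.

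**Figure D5:**
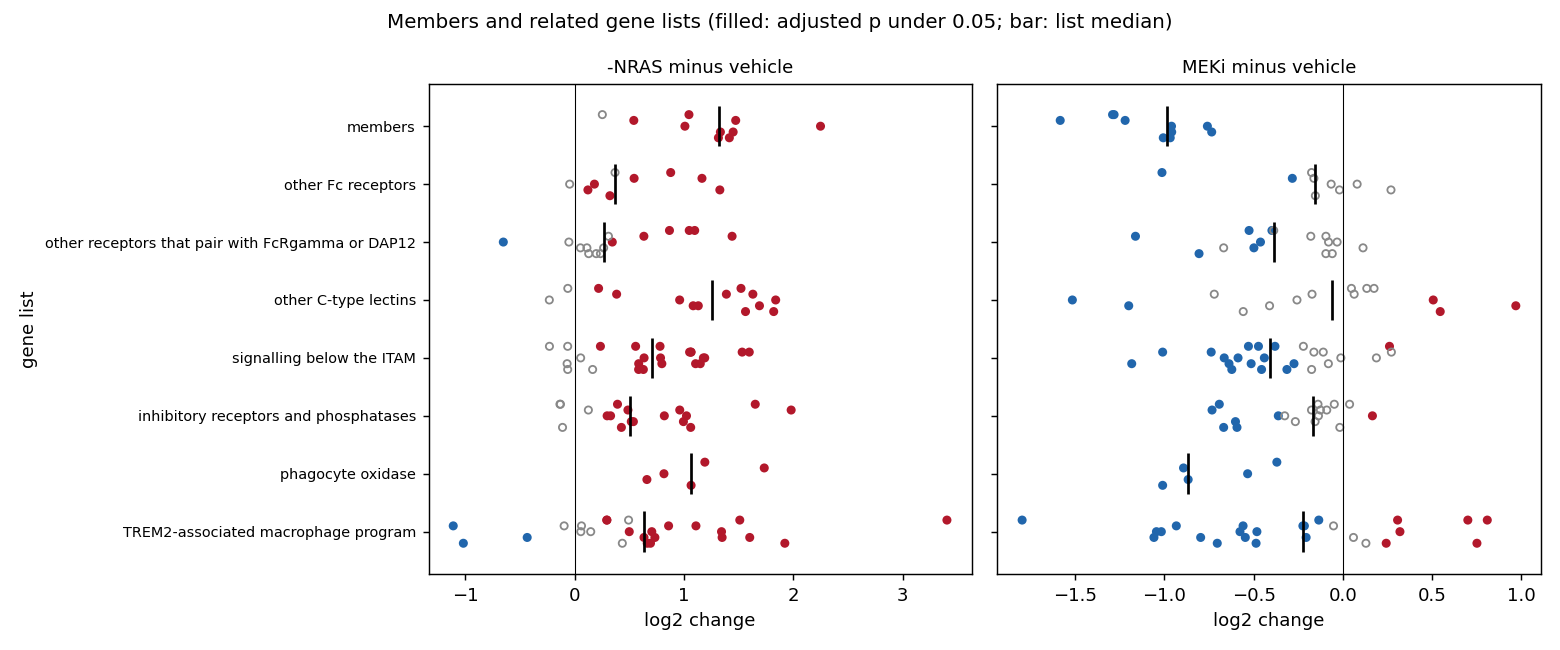
Log2 change on the log2(intensity + 16) scale (x axis) of each tested gene of the members and of 7 related lists (rows), for -NRAS minus vehicle (left) and MEKi minus vehicle (right); filled points have a limma adjusted p under 0.05 and bars are list medians. The members' medians are 1.32 and -0.99, and the other C-type lectins have medians of 1.26 and -0.06.

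Genes next to the members on the chromosome did not all move with them. Fcgr2b, Fcgr4 and Fcgr3 lie side by side on chromosome 1, with Fcer1g close by. Of the 12 tested genes among and beside these 4 that are not members, 3 rose (Dusp12, Fcrla and Usp21) and 1 fell (Tomm40l) in -NRAS minus vehicle, with changes between -0.30 and 0.32. In MEKi minus vehicle 2 rose (Ppox and Usp21) and 1 fell (Dusp12). Of all genes tested, 31.8% rose and 27.5% fell in -NRAS minus vehicle, and 24.3% rose and 20.9% fell in MEKi minus vehicle. The counts among these 12 neighbours do not exceed those shares. Beside Clec4n and Clec4d on chromosome 6, Clec4a3 and Clec4a2, relatives in the same receptor family, rose by 1.82 ± 0.31 and 1.13 ± 0.17 in -NRAS tumours (limma adjusted p = 4.41e-05 and 8.61e-06), while Clec4e (Mincle), the partner of Clec4d, changed by 0.11 ± 0.27 (limma adjusted p = 0.742). In MEKi tumours Clec4a2 fell by 1.20 ± 0.17 (limma adjusted p = 9.43e-06) and Clec4e changed by -0.67 ± 0.27 (limma adjusted p = 0.0519). Of 4 genes tested beside Clec7a, 3 rose and 1 fell in -NRAS minus vehicle, and 0 rose and 1 fell in MEKi minus vehicle. Olr1, which encodes the oxidised LDL receptor LOX-1, fell in both, by 0.65 ± 0.13 and 0.83 ± 0.13 (limma adjusted p = 0.000249 and 3.78e-05). Clec1a, Klrd1 and Gabarapl1 rose by 1.39 ± 0.17, 1.34 ± 0.28 and 0.28 ± 0.10 in -NRAS tumours (limma adjusted p = 8.5e-07, 0.000354 and 0.0181).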

How the data were processed

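Total RNA of 18 tumours was hybridised to Affymetrix arrays, 1 per tumour. The deposited values are linear intensities of 45037 probe sets, already summarised and scaled by the authors, with array medians of 72.3 to 78.5; per the submitters' processing notes MAS5 and RMA were used, with no version, and which of them made this table is not given in the sources used here. Depth is not defined for arrays; the number of arrays limits precision.

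Probe sets were named by the platform annotation: 34945 had 1 symbol, 932 had several and 9160 had no entry. Each gene took its probe set with the highest mean, means at or below the 25th percentile were left out (15005 genes; 33777 probe sets in a second fit), and log2(intensity + 16) was fitted for the 3 groups together with limma 3.58.1 in R 4.3.3 (15 residual degrees of freedom, prior 3.46). The fit was also run on simulated data with independent noise for each gene and few changed genes. That setting is simpler than these data, and its outcome is not given here. Ratios, correlations and motif searches used Python 3.11.15 and scipy 1.17.1. Named genes are the members, up to 4 of the called genes with the largest change per list and comparison, and the 6 genes most like the members; exceptions are named. Alternatives changed the filter, probe set choice, scaling, pseudocount, prior, array weights, groups fitted, replicate block and each tumour. Replicate numbers were not taken to pair tumours. After subtracting group means, same-number tumours of different groups correlated between -0.14 and 0.27, with 8 of 18 pairs above 0.1. Tumours with different numbers were not compared, so these values cannot show whether the numbers pair tumours. The members, lists, tests and alternatives were chosen with earlier results of these data known. A motif that was also searched is not reported here.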

Additional observations from a re-analysis of the deposited data

Results flagged for a closer look

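Of 48 groups of 6 tumours tested for a value far from the others (by the gap to its nearest neighbour as a share of the group's range), 3 stood out, and chance gives about 1 in 20. Fcgr4 was 553 in -NRAS replicate 6, with 129 to 221 in the other -NRAS tumours. That tumour also had the highest summed NK cell markers (1877, with 349 to 743 in the others) and B cell markers (2977, with 715 to 2410.2 in the others) of its group. It was highest too for the pan-leukocyte markers (23030, with 13524 to 20912 in the others) and the macrophage markers (91206, with 72772 to 90789 in the others). Its neutrophil and monocyte sums, 4723 and 29770, lay within the range of the other -NRAS tumours. Sums of intensities follow their brightest genes, and S100a8 and S100a9, at 2584 and 1572, made most of this neutrophil sum. The monocyte sum had medians of 30771, 25177 and 27337 in -NRAS, MEKi and vehicle tumours, although 4 of 6 monocyte markers rose in -NRAS minus vehicle. These 2 sums therefore do not show whether neutrophils or monocytes were more or fewer in that tumour. The part of any of these cells in the Fcgr4 value was not tested. The other 2 values are of dim probe sets that did not move between groups: Fcgr1 probe set 1436625_at was 57.6 in MEKi replicate 3, with 87.2 to 94.8 in the other MEKi tumours, and Trem2 probe set 1421226_at was 63.3 in MEKi replicate 4, with 45.7 to 52.0 in the others.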

How the results depend on the processing

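Over 31 alternatives each, the changes of all members kept their direction and their side of the threshold in all 3 comparisons, except the rise of Clec4n in -NRAS minus vehicle, which was not called under 5 (the values without 4 tumours are given above; the most variable probe set per gene gave 0.62, adjusted p = 0.0831). Members that rose in -NRAS minus vehicle numbered 8 or 9 under 33 alternatives, and members that fell in MEKi minus vehicle numbered 10, except 9 at an adjusted p under 0.01 and 5 where a 2-fold change was also needed. A fit with the replicate number as a block changed no member call, with 9 that rose and 10 that fell; over all genes it gave 4701 that rose and 4027 that fell in -NRAS minus vehicle, where the fit without it gave 4772 and 4127. Median centring gave 4367 and 4634 there, which turns the split between higher and lower genes. Chosen after seeing the data, the ratio alternatives turned the sign of some differences near 0, for which the cause was not tested. In -NRAS minus MEKi, Fcgr1 over Fcgr2b was -0.19 with a pseudocount of 64 and -0.29 with 1451941_a_at. In -NRAS minus vehicle, Fcgr4 over Fcgr2b was 0.061 with a pseudocount of 1 and 0.27, 0.075 and 0.13 with 1435476_a_at, 1455332_x_at and 1451941_a_at, and Tyrobp over Fcer1g was 0.00022 with a pseudocount of 64. In MEKi minus vehicle, Fcgr3 over Fcgr2b was 0.21 with 1451941_a_at, and Clec4n over Clec4d was -0.079 with a pseudocount of 64 and -0.54 with 1425951_a_at. Leaving out each tumour gave -0.11 to 0.14 for Fcgr1 over Fcgr2b in -NRAS minus MEKi, -0.33 to 0.11 for Fcgr4 over Fcgr2b in -NRAS minus vehicle, -0.037 to 0.14 for Clec4n over Clec4d in MEKi minus vehicle, and, for Tyrobp over Fcer1g, -0.062 to 0.041 in -NRAS minus vehicle, -0.13 to 0.012 in MEKi minus vehicle and -0.015 to 0.11 in -NRAS minus MEKi. In the related lists, counts in MEKi minus vehicle ran between 0 and 2 that fell for the other Fc receptors, 4 and 9 for the receptors that pair with the gamma chain or DAP12, and 10 and 16 for the TREM2-associated genes, of which 2 to 6 rose. Signal over background limits the dim probe sets of Fcgr1, Fcgr2b and Trem2, and Fcgr4 and Clec4n probe set 1425951_a_at in MEKi tumours.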
